A study of Mus musculus with 2 samples.

Results

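The genes described here were 8 CXC chemokine ligands (Cxcl1, Cxcl2, Cxcl3, Cxcl5, Cxcl9, Cxcl10, Cxcl12 and Cxcl16) and 2 of their receptors (Cxcr2 and Cxcr4). They were taken by gene symbol and made up 10 of the 32285 genes listed for each library. Single cell RNA sequencing (scRNAseq) was performed on 1 control and 1 ischemia library from kidneys of male wildtype C57BL/6J mice aged 19 weeks. The control library came from the uninjured kidney on the side opposite to an injury, and the ischemia library from a kidney that underwent 27 min of ischemia and 24 h of reperfusion. The labels do not tie either library to a numbered animal, and the control is not a kidney of an unoperated mouse. Each condition had a single library, and cells of 1 library are not replicates, so that no p-value is given for any comparison.

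Chemokines are small secreted proteins that form gradients along which leukocytes migrate. Cxcl1, Cxcl2, Cxcl3 and Cxcl5 carry the amino acids glutamate, leucine and arginine ahead of the CXC motif and attract neutrophils through Cxcr2. Cxcl9 and Cxcl10 are induced by interferons and bind Cxcr3 on T and NK cells, Cxcl12 binds Cxcr4 and is made by stromal and endothelial cells, and Cxcl16 is a membrane-anchored ligand of Cxcr6. In the ischemic kidney, chemokines of this family are known for drawing neutrophils and monocytes into the tissue within a day of reperfusion.

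Of the barcodes called as cells, 12586 of 15110 in the control library and 13116 of 15257 in the ischemia library had at least 200 genes, 500 to 150000 unique molecular identifiers (UMIs, each marking 1 captured RNA molecule) and at most 55% mitochondrial UMIs. These kept cells held 124679362 and 128733541 UMIs, with a median of 3839 UMIs per control cell and 2138.5 per ischemia cell, and 58 barcodes of kept cells occurred in both libraries. Clustering gave 17 named cell types, of which 14 had 30 or more cells in both libraries. The names rest on marker genes, so each type is called by its name with "-like" at its first mention only. An unnamed cluster of shallow cells (cluster 0, median 836 UMIs) held 36.1% of control and 45.1% of ischemia cells, but 4.63% and 4.48% of their UMIs. Levels are given as CPM, the UMIs of a gene in a group of cells divided by all UMIs of that group and scaled to the usual CPM total, with exact 95% Poisson intervals, and ratios are ischemia over control with exact conditional 95% intervals. All intervals cover counting error only, not the spread between mice.

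Neutrophil (PMN)-like cells numbered 17 (control) and 172 (ischemia), and their defining genes S100a8 and S100a9 together reached 133751 and 94433 CPM there. Resident-type macrophage-like cells numbered 194 and 173, with 12124 and 12483 CPM of the complement genes C1qa, C1qb and C1qc together. Monocyte-like cells numbered 19 and 271. Levels in control PMN and monocytes therefore rest on few cells. Clustering at resolution 0.6 split the monocytes into a cluster led by Chil3, Vcan and Arg1 (8 control and 245 ischemia cells) and a cluster led by Cd300e, Ace and Eno3 (10 and 28). The mix of monocytes thus differed between the libraries, and its part in the monocyte ratios was not tested. The proximal tubule (PT)-like and endothelial (EC)-like cells of the libraries lay largely in different sub-clusters. These sub-clusters, and the immune types above, came from a second clustering in which the libraries were merged but not integrated. PT sub-clusters 0, 1 and 7 held 984, 906 and 438 of 2789 ischemia but 42, 46 and 25 of 3948 control PT cells, whereas sub-clusters 2 to 6 held 717, 661, 655, 609 and 581 control cells. EC sub-cluster 0 held 545 of 904 control and 17 of 1043 ischemia EC, and sub-clusters 1, 2 and 4 held 348, 278 and 211 ischemia but 14, 34 and 3 control EC. Some of these sub-clusters were led by genes of other cells. Among the leading genes of EC sub-cluster 0 were the distal tubule genes Slc12a3, Slc12a1 and Calb1, those of sub-cluster 4 were Fgb, Fgg, Spp1, Clu, Havcr1 and Lcn2, and those of sub-cluster 6 (95 control and 0 ischemia cells) included the tubular genes Gatm, S100g, Miox and Klk1. EC sub-clusters 0, 4 and 6 and PT sub-clusters 4, 6, 8 and 9 had more markers of another class than of their own among their leading 10 genes. EC and PT ratios are therefore also given without them, a setting chosen after the data were seen, which left 261 control and 815 ischemia EC and 2217 and 2649 PT cells. The EC that remained were not free of other classes. Sub-cluster 2, which was kept, had S100a9 and Ccl3 among its leading genes. Sub-cluster 7 scored higher for another class (1.807) than for its best EC subtype, glomerular (0.138). These scores are relative to the other EC sub-clusters and do not measure EC identity.

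Of the 10 genes, 6 lie in a pair of clusters on mouse chromosome 5. The neutrophil-attracting ligands span 147 kb in the order Cxcl5 (chr5:90759360-90761624), Cxcl3 (chr5:90786103-90789600), Cxcl1 (chr5:90891241-90893115) and Cxcl2 (chr5:90903871-90905938), all on the plus strand. Cxcl9 (chr5:92321347-92328079) and Cxcl10 (chr5:92346638-92348889) lie within 27.5 kb of each other on the minus strand. Cxcr2 (chr1:74153989-74161246, plus strand), Cxcr4 (chr1:128588199-128592293, minus strand), Cxcl12 (chr6:117168535-117181367, plus strand) and Cxcl16 (chr11:70453983-70459984, minus strand) lie elsewhere. Coordinates are those of GRCm38 (mm10), the build of the deposited counts, and all 10 gene identifiers of the counts matched the annotation.

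Promoter sequences are shown for the 5 ligands that hold a match to a motif of the transcription factors NF-kB, AP-1 or the interferon-response family in the stretch shown, since 3 neighbours of the chromosome 5 cluster share the same kB letters. The sequences are RefSeq promoters on GRCm38.p6, printed 5′ to 3′ on the strand of the gene, with motif matches in capitals.
Cxcl1, plus strand, chr5:90891125-90891214, 120 to 31 bases before the start: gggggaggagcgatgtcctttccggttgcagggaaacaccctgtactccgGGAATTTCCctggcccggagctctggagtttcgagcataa
Cxcl2, plus strand, chr5:90903779-90903868, 120 to 31 bases before the start: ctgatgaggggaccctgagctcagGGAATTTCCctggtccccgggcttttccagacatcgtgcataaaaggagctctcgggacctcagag
Cxcl3, plus strand, chr5:90785981-90786070, 120 to 31 bases before the start: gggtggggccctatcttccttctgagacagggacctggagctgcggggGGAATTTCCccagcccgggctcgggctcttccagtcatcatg
Cxcl9, minus strand, chr5:92328210-92328299, beginning 220 bases before the start: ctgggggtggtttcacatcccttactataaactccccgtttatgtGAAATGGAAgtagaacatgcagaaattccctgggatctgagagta
Cxcl10, minus strand, chr5:92348950-92349109, 220 to 61 bases before the start: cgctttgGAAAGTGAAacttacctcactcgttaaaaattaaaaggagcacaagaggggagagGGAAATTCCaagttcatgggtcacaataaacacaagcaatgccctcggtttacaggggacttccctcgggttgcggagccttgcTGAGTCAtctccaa

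Each window ran from 250 bases before to 50 bases after the start of the gene, and 8 of the 10 genes had one. Cxcl5 and Cxcl16 had none, so their promoters were not searched. Both strands were searched. The kB form GGAANTTCC occurred in the windows of Cxcl1, Cxcl2, Cxcl3 and Cxcl10, and in 0.928% of the 32851 windows of the table. The same 9 letters, GGAATTTCC, stood 70, 96 and 72 bases before the start of Cxcl1, Cxcl2 and Cxcl3. The interferon-response form GAAANNGAA occurred in the windows of Cxcl9 and Cxcl10, and in 8.56% of all windows. The AP-1 form TGANTCA also occurred in these 2 genes (7.81% of all windows), in Cxcl9 after the start and in Cxcl10 74 bases before it. The hypoxia-response form ACGTG occurred in Cxcl1 and Cxcl3 (19.6% of all windows), and the STAT form TTCNNNGAA in none of the 8 windows (8.30% of all windows). A match is a description of the letters and not evidence of binding.

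Over all kept cells, 8 of the 10 genes were 2-fold or more higher in the ischemia library, against 10.1% of the 18925 genes with 20 or more UMIs over both libraries, and 1 of the 10 was 2-fold or more lower, against 4.77%. The median log2 ratio was 2.0 over the 10 genes and 0.14 over all genes tested. Among the neutrophil-attracting ligands, Cxcl1 had 8.02 CPM in control against 24.7 CPM in ischemia cells (ratio 3.08, 2.86–3.31), and Cxcl2 had 8.44 and 95.2 CPM (ratio 11.3, 10.6–12.0). Their neighbours were scarce in the control library. Cxcl3 had 1 UMI there and 376 in the ischemia library (ratio 364, 65.0–14421), and Cxcl5 had 5 and 126 UMIs (ratio 24.4, 10.2–76.5). For the interferon-inducible ligands, Cxcl9 had 0.906 and 1.90 CPM (ratio 2.10, 1.67–2.65) and Cxcl10 had 4.66 and 24.2 CPM (ratio 5.19). The 2-fold call of Cxcl9 was marginal. Leaving mitochondrial UMIs out of the totals moved its log2 ratio of 1.07 by -0.095, to under 2-fold, and its UMIs lay in few cells, as given below. Cxcl16 had 33.8 and 64.2 CPM, a ratio of 1.90 that lay just under 2-fold. Cxcl12 was the 1 gene of the 10 that was lower in the ischemia library, with 10.6 CPM in control against 3.79 CPM in ischemia cells (ratio 0.358, 0.322–0.397). Of the receptors, Cxcr2 had 0.810 and 6.18 CPM (ratio 7.62) and Cxcr4 had 1.87 and 5.14 CPM (ratio 2.75).

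**Figure D1:**
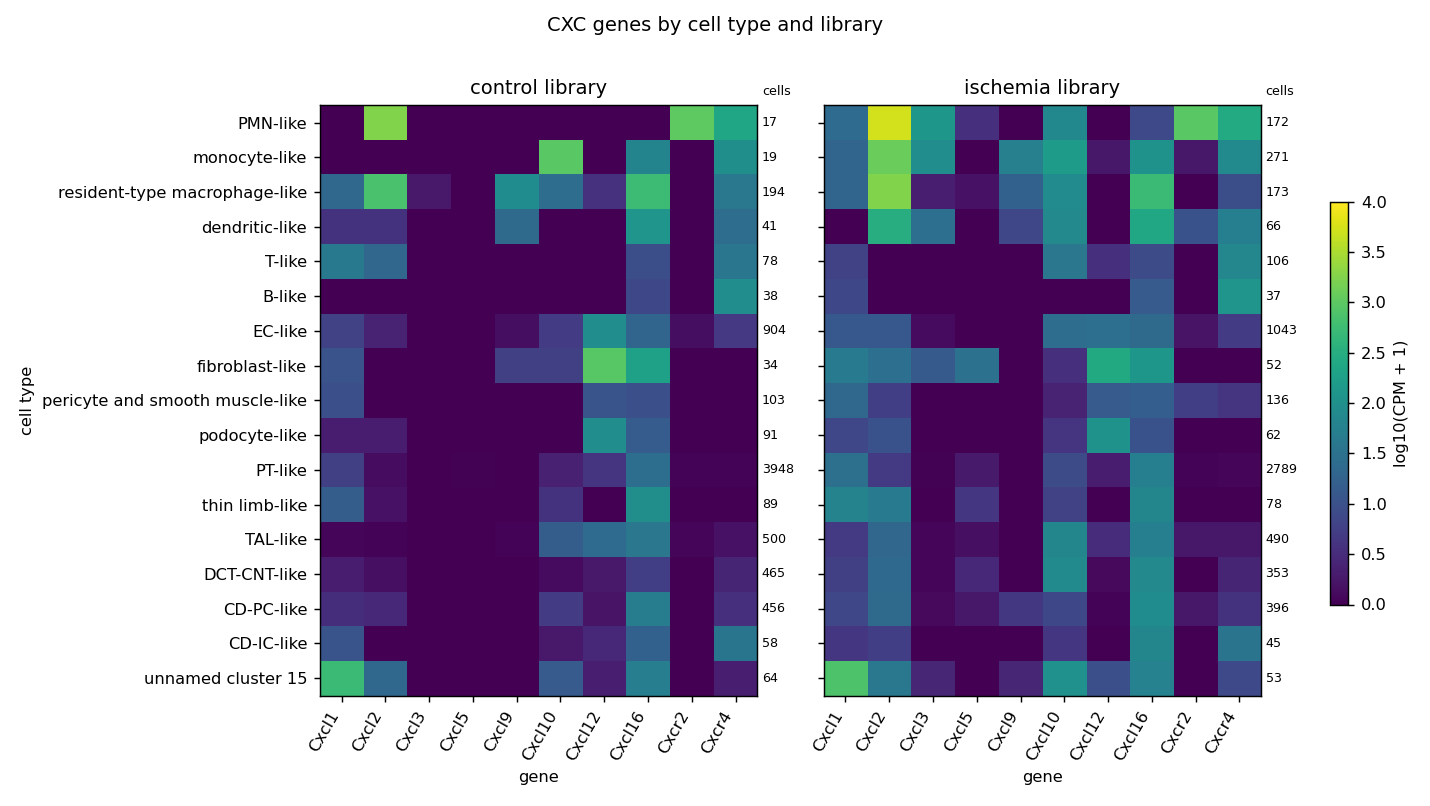
Level of each of the 10 CXC genes (columns) in each cell type (rows) of the control library (left) and the ischemia library (right), as log10(CPM + 1), with the number of cells beside each row. In both panels Cxcl2 and Cxcr2 were highest in PMN, Cxcl12 in fibroblasts and Cxcl1 in the unnamed cluster 15 (539 and 774 CPM), and the PT, TAL, DCT-CNT and CD-PC rows are brighter for Cxcl1, Cxcl2, Cxcl10 and Cxcl16 in the ischemia panel.

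A ratio over all cells can come from more cells of a type or from a higher level within types. Each gene's level was therefore recomputed with only the UMI shares of the types, or only the levels within types, set to those of the ischemia library. For Cxcr2 the shares alone gave a ratio of 7.59 against the observed 7.62, and the levels alone gave 1.32. Cxcr4 behaved in the same way, with 2.78 from shares alone, 1.05 from levels alone and 2.75 observed. For both receptors the shares of UMIs held by the types alone gave a ratio close to that observed. The opposite held for Cxcl1 (0.888 from shares, 3.30 from levels), Cxcl5 (1.11 and 24.2), Cxcl12 (1.2 and 0.338) and Cxcl16 (1.14 and 1.80). Cxcl2 lay between, with 2.45 from shares, 3.96 from levels and 11.3 observed. For Cxcl9 the shares gave 1.5 and the levels 0.718. For Cxcl10 both parts were large (5.05 and 4.43), but the first rests on 107 UMIs in 1 control monocyte. Cxcl3, with 1 control UMI, was left out of this calculation.

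**Figure D2:**
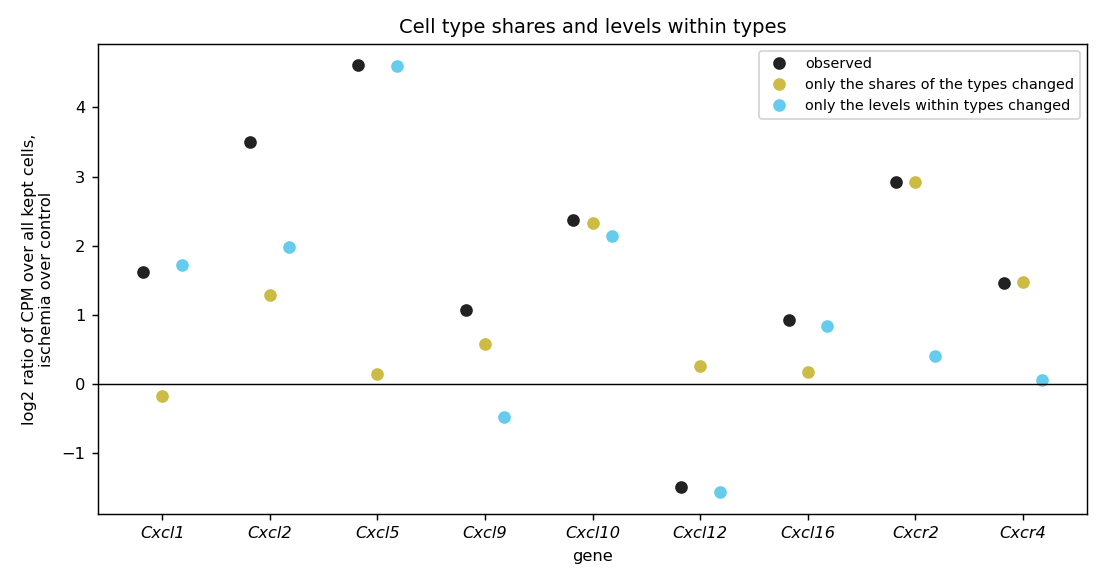
Log2 ratio of CPM over all kept cells, ischemia over control, for 9 of the 10 genes, as observed (black), with only the shares of the cell types changed (yellow) and with only the levels within types changed (blue). For Cxcr2 and Cxcr4 the yellow points lie at the height of the black ones, and for Cxcl1, Cxcl5, Cxcl12 and Cxcl16 the blue points lie near it.

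The cells that held each transcript differed between the libraries. Cxcl2 UMIs were found mainly in resident-type macrophages in the control library (76.1%, against 13.8% in PMN), and in the ischemia library were divided among PMN (33.2%), monocytes (25.8%) and resident-type macrophages (24.6%). Cxcl1 showed no such myeloid share. PT cells held 34.2% of its control and 61.7% of its ischemia UMIs, and cluster 15, a small unnamed cluster of 64 control and 53 ischemia cells led by Ptn, Sfrp2, Adamts5 and Itga8, held 45.2% and 14.5%. PMN held 84.2% and 90.1% of Cxcr2 UMIs. For Cxcl16, PT held 45.8% and 43.5%, and for Cxcl12, EC held 34.1% and 38.3%.

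**Figure D3:**
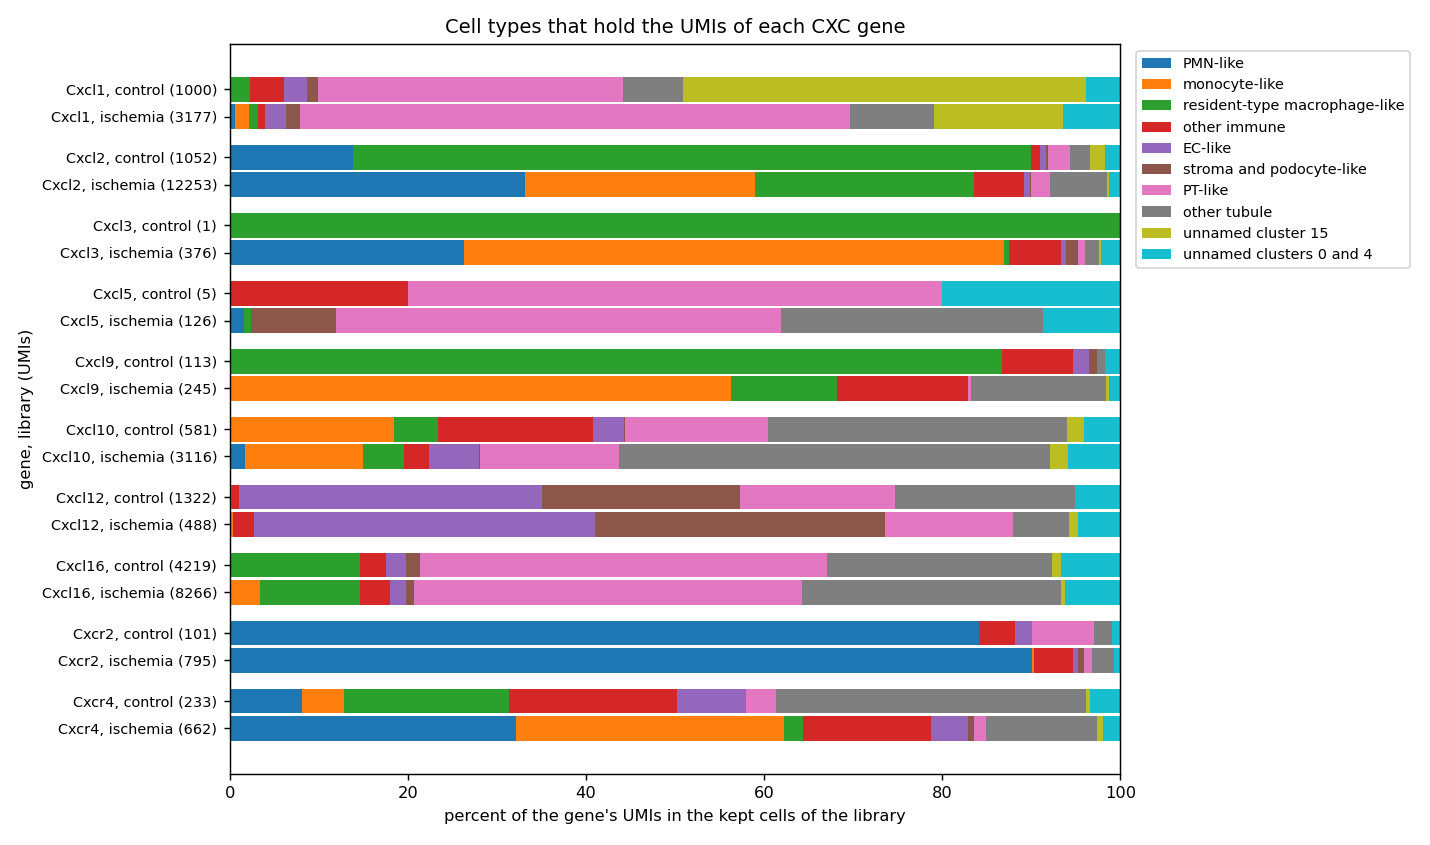
Percent of the UMIs of each gene held by each group of cell types, for the control (upper bar) and ischemia library (lower bar) of each gene, with the gene's UMIs in brackets. In the ischemia library Cxcl2 was divided among PMN, monocytes and resident-type macrophages (33.2%, 25.8% and 24.6%), whereas PT held 61.7% of Cxcl1. The control bars of Cxcl3 and Cxcl5 rest on 1 and 5 UMIs.

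Cxcl1 was higher in the ischemia library in the nephron types measured, while in macrophages the interval of its ratio held 1. In PT (3948 control and 2789 ischemia cells) it had 4.76 CPM in control against 28.8 CPM in ischemia cells (ratio 6.04, 5.39–6.80), and 117 control and 558 ischemia cells held a UMI. The control level was concentrated in few cells, 5 of which held 145 of 342 UMIs. Without the 5 cells per library with the most UMIs the ratio was 9.88. That step left 1844 of 1961 ischemia UMIs and so took a larger share of the control UMIs, which tends to raise a ratio. In thin limb-like cells of the loop of Henle Cxcl1 had 13.9 and 59.8 CPM (ratio 4.29, 2.77–6.91), the highest level of any named type in the ischemia library, although 114 of its 148 UMIs there lay in 5 of 78 cells. That ratio was 1.57 (1.11–2.25) when cells were gated on marker UMIs and 2.21 without integration of the libraries. Thick ascending limb (TAL)-like cells held 2 and 47 UMIs (ratio 19.3, 5.06–164), distal convoluted and connecting tubule (DCT-CNT)-like cells had 0.999 and 4.73 CPM (ratio 4.74), and collecting duct principal (CD-PC-like) cells had 2.35 and 6.13 CPM (ratio 2.61). All 5 nephron types with 20 or more UMIs were past 2-fold in the same direction over the cells as clustered. The CD-PC cluster (852 cells) also had Aqp6, a marker of intercalated cells, among its leading genes. At resolution 0.6 the CD-PC cluster held 660 cells, and a separate cluster of 186 cells, led by Dmrt2, Aqp6 and Pdlim3, was named intercalated. CD-PC values may thus include intercalated cells, whose part was not tested. Without the top 5 cells the TAL bound was 7.52, but this left out every control UMI, as only 2 control cells held one. EC had 5.22 and 11.8 CPM (ratio 2.26, 1.43–3.66, or 3.64 without the top 5 cells). Without the sub-clusters led by other classes the EC ratio was 1.58 (0.954–2.73), an interval that holds 1, and the PT ratio was 5.28 (4.69–5.96). A transcript of injured PT also differed between the libraries in the other types. Havcr1, at 7.13 and 417 CPM in PT, stood at 1.81 and 104 CPM in EC, 0.581 and 33.4 CPM in TAL, 0.444 and 23.8 CPM in DCT-CNT, 0.961 and 21.3 CPM in CD-PC and 0.581 and 298 CPM in the thin limb. If these types held Cxcl1 at its PT ratio to Havcr1, the ischemia levels would be 7.2 CPM in EC (11.8 measured), 2.30 CPM in TAL (3.74 measured), 1.64 CPM in DCT-CNT (4.73 measured), 1.47 CPM in CD-PC (6.13 measured) and 20.5 CPM in the thin limb (59.8 measured). The part of PT transcripts in the Cxcl1 of these types was not tested further. In resident-type macrophages the levels were 20.5 and 19.1 CPM (ratio 0.933, 0.531–1.66), an interval that holds 1, and without the top 5 cells the ratio was 1.51 (0.345–9.06). In cluster 15 Cxcl1 stood at 539 CPM in control against 774 CPM in ischemia cells (ratio 1.44, 1.26–1.64), with 226 of 452 and 276 of 460 UMIs in 5 cells each. Below the thin limb, the ischemia levels of PT, pericyte and smooth muscle-like cells, monocytes and macrophages followed each other with overlapping intervals (28.8, 21.6, 19.5 and 19.1 CPM).

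Within PT, Cxcl1 was also compared between cells with 2 or more UMIs and cells with 0 UMIs of Havcr1, the gene of the tubular injury marker KIM-1. In the ischemia library Cxcl1 had 34.7 CPM in 1392 Havcr1-positive and 17.1 CPM in 898 Havcr1-negative cells, 2.02-fold higher in the former (1.76–2.33). In the control library it had 84.9 CPM in 54 Havcr1-positive and 2.73 CPM in 3767 Havcr1-negative cells, 31.1-fold higher (24.6–39.2). A small number of control PT cells thus held Cxcl1 at a level above that of ischemia PT. The ischemia cells differed in depth, with medians of 33955 and 8216.5 UMIs, and the part of depth was not tested. Cxcl5 had 61 UMIs in the Havcr1-positive and 2 in the Havcr1-negative ischemia cells (ratio 9.21, 2.44–77.8). Cxcl10 had 8.51 and 2.25 CPM (ratio 3.78, 2.62–5.64) and Cxcl2 4.65 and 2.18 CPM (ratio 2.13, 1.45–3.24). Cxcl16, in contrast, had 53.2 and 51.5 CPM (ratio 1.03, 0.949–1.12), and Cxcl12 had 0.987 and 0.871 CPM (ratio 1.13, 0.589–2.35). Lcn2, another injury gene, which encodes NGAL, was at 47.6 and 55.9 CPM (ratio 0.852, 0.785–0.927). In the control library the same ratios were 29.9 (12.0–71.1) for Cxcl2, 12.7 (6.95–22.1) for Cxcl10, 5.95 (4.39–7.92) for Lcn2, 0.982 (0.699–1.34) for Cxcl16 and 1.5 (0.596–3.15) for Cxcl12. The intervals of Cxcl16 and Cxcl12 held 1 in both libraries.

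Cxcl1 levels also differed among the PT sub-clusters. Sub-cluster 0, led by S100a6, Lgals3, Hspb1 and Havcr1, held 42 control and 984 ischemia cells with 46.4 and 30.7 CPM. In sub-cluster 10, led by Mlf1, Fosb and Dusp1, 100 control and 27 ischemia cells had 69.2 and 97.1 CPM. In sub-cluster 7, named injured PT-like, 25 control and 438 ischemia cells had 41.6 and 58.9 CPM. In sub-cluster 3, which was unnamed and led by the S3 gene Slc7a13, 661 control and 87 ischemia cells had 4.96 and 33.4 CPM. In sub-cluster 1, injured PT-like and led by Lcn2, Ifit3 and Clu, the ischemia level was 14.3 CPM, against 2 UMIs in the control cells. Within sub-clusters 0, 7 and 10 the libraries thus stood closer together than over PT as a whole.

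Cxcl2, made chiefly by myeloid cells on activation, was highest in PMN of both libraries, with 1739 CPM in control against 5376 CPM in ischemia cells (ratio 3.09, 2.62–3.67). Of PMN, 11 of 17 control and 156 of 172 ischemia cells held a UMI. The 5 control PMN with the most UMIs held 115 of 145 UMIs, and the 5 such ischemia PMN 767 of 4064. Leaving out 5 cells per library takes a far larger share of 17 control than of 172 ischemia PMN, which raises a ratio by construction, so that PMN and monocyte ratios are read over all their cells. Resident-type macrophages had 713 and 1746 CPM (ratio 2.45, 2.27–2.65), and 55 of 194 and 78 of 173 cells held a UMI. In monocytes 0 UMIs were found in 19 control cells and 3158 in 271 ischemia cells (1234 CPM), a level at least 46.7-fold higher when the control count is set to the limit of 3 UMIs. The mix of monocytes differed between the libraries, as given above. All 3 myeloid types were higher in the ischemia library, and their ischemia levels (5376, 1746 and 1234 CPM) did not overlap in their intervals. Dendritic-like cells held 1 and 200 UMIs, but 199 of the latter lay in 5 of 66 cells.

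In tubule and EC Cxcl2 was far lower than in PMN, macrophages and monocytes, yet also higher in the ischemia library. TAL held 1 control and 248 ischemia UMIs (ratio 204, 36.3–8091), DCT-CNT had 0.444 and 22.2 CPM (ratio 50.1, 19.2–186), and CD-PC had 1.92 and 23.0 CPM (ratio 12.0, 7.43–20.6). EC had 1.41 and 11.8 CPM (ratio 8.38, 3.88–21.5) and PT 0.362 and 3.77 CPM (ratio 10.4, 6.95–16.3). Few cells carried these counts. In TAL 5 of 490 ischemia cells held 169 of 248 UMIs, in CD-PC 176 of 252 and in the thin limb 106 of 113. Leaving out the top 5 cells per library removed every control UMI in TAL, CD-PC, DCT-CNT and EC. No more than 5 control cells of each held one, so the bounds there (21.9, 22.0, 32.0 and 6.34) are set by the ischemia UMIs that remained. In PT, where 6 of 26 control and 134 of 257 ischemia UMIs remained, the ratio was 23.6, and this unequal loss tends to raise it. In the thin limb the bound was 1.63. Without the sub-clusters led by other classes the ratio was 4.51 (2.09–11.6) in EC and 11 (6.95–18.2) in PT.

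Neutrophil and macrophage transcripts in these types also differed between the libraries. S100a8 and S100a9 together stood at 0.484 (control) and 16.8 CPM (ischemia) in TAL, at 1.07 and 94.0 CPM in CD-PC, at 1.11 and 6.84 CPM in DCT-CNT, at 5.62 and 94.5 CPM in EC and at 5.72 and 5.25 CPM in PT. C1qa, C1qb and C1qc together stood at 1.65 and 1.35 CPM in TAL, at 11.7 and 17.7 CPM in CD-PC and at 1.89 and 16.8 CPM in DCT-CNT. If all Cxcl2 of TAL came with these transcripts at the ratio of PMN or of macrophages, its level would be 0.956 or 0.189 CPM, against 19.7 CPM measured. The same calculation gave 5.35 or 2.47 CPM in CD-PC (23.0 measured), 0.389 or 2.35 CPM in DCT-CNT (22.2 measured), and 5.38 or 2.53 CPM in EC (11.8 measured). Monocytes were not used as a source. In the ischemia library they held 3158 Cxcl2 UMIs beside 4616 UMIs of C1qa, C1qb and C1qc, against 3018 and 21580 in resident-type macrophages. Their ratio would thus give higher levels than that of macrophages. Ischemia EC held 78 Cxcl2 UMIs beside 120 of C1qa, C1qb and C1qc, close to the ratio of monocytes, which would thus give about the level measured. The same counts were 169 and 128 in DCT-CNT, 252 and 193 in CD-PC and 248 and 17 in TAL. Each source was also taken by itself, and the part of myeloid transcripts in these types was not tested further. After cells with any UMI of these 5 genes were left out, Cxcl2 was at 16.0 CPM in TAL, 19.6 CPM in CD-PC, 15.1 CPM in DCT-CNT, 10.5 CPM in EC and 2.70 CPM in PT of the ischemia library, and the ratios were 159, 9.47, 32.1, 6.96 and 10.2. In the dendritic type, where S100a8 and S100a9 stood at 0 and 2708 CPM, the calculation gave 154 or 130 CPM against 309 measured.

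Cxcl3, the third ligand of the cluster with the kB match, was found mainly in leukocytes of the ischemia library. Monocytes held 228 of its 376 UMIs (60.6%, 89.1 CPM) and PMN 99 (26.3%, 130.95 CPM), with 0 UMIs in control monocytes and PMN. These levels were at least 3.37-fold and at least 3.64-fold higher than the limits of the control types, but without the top 5 cells the bound was 1.37 in monocytes and gave no fold in PMN. Of 172 ischemia PMN, 20 held Cxcl3, against 156 with Cxcl2. Cxcl5, in contrast, was found mainly in nephron cells. PT held 3 control and 63 ischemia UMIs (ratio 22.1, 7.24–110.2), the latter in 31 of 2789 cells. Without the top 5 cells the bound was 13-fold, but every control UMI was then left out by construction. A further 14 UMIs lay in DCT-CNT, 9 in CD-PC, 8 in the thin limb and 6 in TAL of the ischemia library, types that held 0 control UMIs. Fibroblast-like cells reached 30.7 CPM, from 12 UMIs in 4 of 52 cells, 9 of them in 1 cell.

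Cxcr2, the receptor of these ligands, reached 1019 (control) and 947 CPM (ischemia) in PMN (ratio 0.929, 0.741–1.18). All 17 control PMN (100%) held a UMI, as did 157 of the 172 ischemia PMN (91.3%), and after thinning to 1000 UMIs per cell the shares were 52.9% and 65.1%. TAL cells, which should lack the receptor and are deeper (median 24563 against 3998 UMIs of PMN in the ischemia library), held a UMI in 0.400% and 0.816%, and in podocyte-like cells none was found. The interval of the level ratio within PMN thus holds 1, while PMN made up 0.135% of control and 1.31% of ischemia cells. Receptor and ligand were found in the same cells. Of 157 ischemia PMN with a Cxcr2 UMI, 142 (90.4%) also held a Cxcl2 UMI, and of the 15 without one, 93.3% did.

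Cxcl9, a ligand of Cxcr3, was found in few cells, and its values cannot be separated from single cells. Resident-type macrophages had 87.2 CPM in control against 16.8 CPM in ischemia cells (ratio 0.192, 0.123–0.294), but 87 of the 98 control UMIs lay in 1 cell, and without the top cell of each library the ratio was 0.940 (0.410–2.24). Ischemia monocytes had 53.9 CPM, with 128 of 138 UMIs in 1 cell, and control monocytes had 0 UMIs. In CD-PC all 37 ischemia UMIs came from 1 cell, against 0 in the control. Over all types, 13 control and 16 ischemia cells held a Cxcl9 UMI.

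Cxcl10 was found in more cells and was higher in the ischemia library in the distal nephron. DCT-CNT held 3 control UMIs (0.333 CPM) and 586 ischemia UMIs (77.0 CPM), a ratio of 231 (78.8–1125), in 3 of 465 and 62 of 353 cells. Leaving out the 5 cells per library with the most UMIs removed all 3 control cells with a UMI by construction. The 326 ischemia UMIs that remained gave a bound of 129.7-fold. TAL had 14.2 and 66.4 CPM (ratio 4.67, 3.91–5.60), with a UMI in 23 of 500 and 119 of 490 cells, and PT had 1.29 and 7.15 CPM (ratio 5.52, 4.41–6.97). Both ratios were larger without the top 5 cells, at 15 and 12. Fewer control than ischemia cells held a UMI, so this step took a larger share of the control UMIs, which tends to raise a ratio. It left 33 of 147 control and 604 of 834 ischemia UMIs in TAL, and 19 of 93 and 215 of 487 in PT. CD-PC showed less, with 4.17 and 6.49 CPM (ratio 1.56, 1.04–2.37), but its 39 control UMIs came from 5 cells. Without the top cell of each library its ratio was 3.30 (1.77–6.62). Without the top 5 the bound was 6.32, but every control UMI was then left out by construction. EC had 4.01 and 26.1 CPM (ratio 6.5, 4.08–10.9), but 104 of 173 ischemia UMIs lay in 1 cell, and without 5 cells the ratio was 3.75. Without the sub-clusters led by other classes it was 4.22 (2.56–7.42) in EC and 4.77 (3.80–6.06) in PT. EC sub-cluster 1, among whose leading genes were Cxcl10, Oasl1 and Ifit3, held 133 of these UMIs. Resident-type macrophages had 25.8 and 83.3 CPM (ratio 3.23, 2.15–4.99, or 7.44 without the top 5 cells), and dendritic cells 0 and 75.7 CPM, at least 8.63-fold higher, from 4 of 66 cells. In monocytes the level over all cells was lower, with 942 CPM in control against 161 CPM in ischemia cells (ratio 0.171, 0.138–0.213). All 107 control UMIs of that type came from 1 of 19 cells, and 258 of 412 ischemia UMIs from 1 of 271. Leaving out the top cell of each library removed every control UMI by construction, so the 154 ischemia UMIs that remained gave only a bound of 2.05. Without the top 5 cells 45 ischemia UMIs remained, and the bound of 0.482 gave no fold. A UMI was held by 1 of 19 control and 15 of 271 ischemia monocytes, so no direction is read for this type. In the ischemia library the intervals of macrophages, DCT-CNT, dendritic cells, PMN and TAL overlapped with their neighbours in the order of levels (83.3, 77.0, 75.7, 71.4 and 66.4 CPM).

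Cxcl12, the ligand that retains leukocytes and progenitors through Cxcr4, was lower in the ischemia library in 4 of the 6 named types measured. Fibroblasts had 900.1 CPM in control against 264 CPM in ischemia cells (ratio 0.293, 0.228–0.375). In these cells 5 of 34 control cells held 130 of 187 UMIs, and without the top 5 the ratio was 0.484. EC had 90.5 and 28.2 CPM (ratio 0.312, 0.262–0.371), with a UMI in 70 of 904 and 61 of 1043 cells. Most EC counts came from EC sub-cluster 3, led by Hpgd, Slc14a1, Lgr5, Lef1 and Bmx, where 104 control and 118 ischemia cells had 313 and 85.2 CPM. This sub-cluster was of like size in both libraries. Without the sub-clusters led by other classes EC had 160 and 29.9 CPM (ratio 0.187, 0.156–0.222), and the PT ratio was 0.311. TAL had 24.2 and 2.23 CPM (ratio 0.0921, 0.0600–0.136), with a UMI in 111 of 500 control and 21 of 490 ischemia cells, and PT had 3.22 and 1.03 CPM (ratio 0.319, 0.241–0.419). In TAL, EC and PT the ratio was lower still without the top 5 cells (0.0617, 0.287 and 0.283). In TAL that step left 213 of 250 control but 16 of 28 ischemia UMIs, an unequal loss that tends to lower a ratio. Podocytes, at 91.9 and 109 CPM (ratio 1.19, 0.783–1.77), and pericyte and smooth muscle cells, at 9.90 and 13.1 CPM (ratio 1.32, 0.522–3.77), had intervals that hold 1, and without the top 5 cells the podocyte ratio was 0.571 (0.215–1.29).

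Cxcr4, the receptor of Cxcl12, was found in leukocytes and in intercalated cells of the collecting duct (CD-IC-like). The 103 CD-IC cells were led by Slc26a4 and may be only a part of the intercalated cells, as given for CD-PC above. PMN had 228 and 282 CPM (ratio 1.24, 0.772–2.09), monocytes 96.9 and 77.7 CPM, B-like cells 89.8 and 123 CPM, T-like cells 36.0 and 70.6 CPM, and dendritic cells 26.3 and 52.5 CPM. All 5 intervals of the ratio hold 1. CD-IC had 34.5 and 33.5 CPM (ratio 0.971, 0.581–1.61). Resident-type macrophages stood apart from these types, with 38.3 CPM in control against 8.10 CPM in ischemia cells (ratio 0.212, 0.107–0.394). There the share of cells with a UMI was 14.9% and 6.94%, and 5.15% and 0.585% after thinning to 1000 UMIs. In PMN this share was 58.8% and 58.7%, and in TAL, which should lack the receptor, 1.2% and 2.04%. Of 101 ischemia PMN with a Cxcr4 UMI, 94 (93.1%) also held Cxcl2, and of those without one, 87.3% did. In the 17 control PMN these shares were 40% and 100%.

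Cxcl16, the membrane-anchored ligand, was the member found in the largest number of cells. Resident-type macrophages had the highest level, 544 CPM in control against 539 CPM in ischemia cells (ratio 0.991, 0.894–1.10), with a UMI in 171 of 194 and 164 of 173 cells. The nephron was not uniform. DCT-CNT had 4.44 and 74.7 CPM (ratio 16.8, 12.2–23.8), with a UMI in 34 of 465 and 136 of 353 cells, and CD-IC had 16.4 and 67.0 CPM (ratio 4.10, 2.39–7.38). PT had 26.9 and 52.8 CPM (ratio 1.96, 1.86–2.08), CD-PC 49.1 and 86.5 CPM (ratio 1.76, 1.57–1.97) and TAL 37.2 and 52.6 CPM (ratio 1.41, 1.25–1.61). In the control library the DCT-CNT level was thus the lowest of these 5 types, and in the ischemia library its interval overlapped that of CD-IC and lay below that of CD-PC. In the shallower unnamed cluster 4 Cxcl16 had 22.5 and 50.5 CPM (ratio 2.24, 1.77–2.86). The thin limb was lower, with 93.5 and 68.7 CPM (ratio 0.735, 0.589–0.917). Dendritic cells had 123 and 253 CPM (ratio 2.06, 1.46–2.97), while EC at 19.3 and 23.2 CPM (ratio 1.21, 0.929–1.57) and fibroblasts at 193 and 128 CPM (ratio 0.665, 0.430–1.03) had intervals that hold 1. Without the top 5 cells the ratio was 19.6 in DCT-CNT, 1.98 in PT, 8.33 in CD-IC and 0.485 (0.238–0.987) in fibroblasts.

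**Figure D4:**
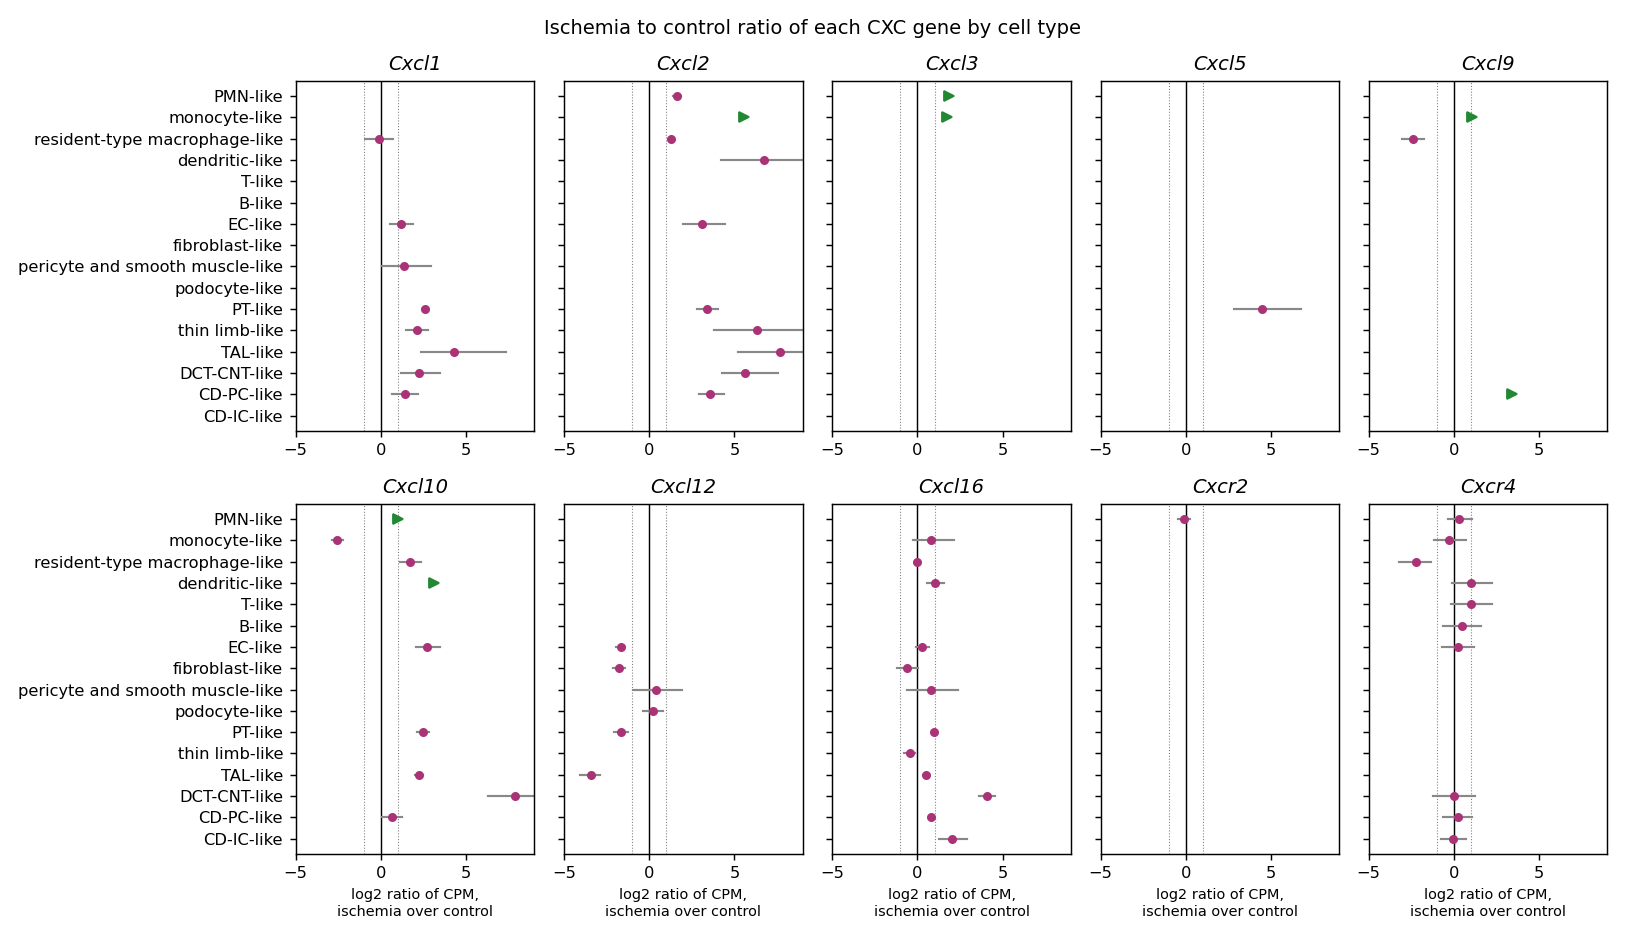
Log2 ratio of CPM, ischemia over control, for each gene (panels) in the named types with 20 or more UMIs of it, with 95% intervals of counting error (bars, some of which run past the axis). Triangles are lower bounds where the control count is 0, and dotted lines mark 2-fold. Cxcl1 and Cxcl2 lie to the right in all nephron types shown, Cxcl12 lies to the left in fibroblasts, EC, PT and TAL, and Cxcr2 in PMN has a ratio of 0.929.

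The counts of genes past 2-fold were set beside those of all genes in the same type. In PT, of 6 members with 20 or more UMIs, 4 were higher (Cxcl1, Cxcl2, Cxcl5 and Cxcl10) and 1 lower (Cxcl12), against 8.25% higher and 4.77% lower of 15306 genes. In TAL 3 of 5 were higher and 1 lower, against 9.66% and 8.5%. In DCT-CNT 4 of 5 were higher and 0 lower, against 8.35% and 6.24%. In CD-PC 3 of 6 were higher, among them Cxcl9 from 1 cell, and 0 lower, against 7.3% and 6.15%. In EC 3 of 6 were higher and 1 lower, against 2.89% and 4.75%. In resident-type macrophages 2 of 6 were higher (Cxcl2 and Cxcl10) and 2 lower (Cxcl9 and Cxcr4), against 8.37% and 5.99%. With 5 or 6 members per type, 1 member past 2-fold is already a larger share than that of all genes in these types. No enrichment is therefore read from these counts. In PMN 2 of 5 members were higher and 0 lower, against 21.2% and 5.88% of all genes. In monocytes 3 of 7 were higher and 1 lower, against 10.9% and 17.5%. The last share is inflated, because a control count of 0 was set to 3 UMIs and control monocytes held few UMIs. Genes with few UMIs, all of them in ischemia monocytes, were thereby called lower. Among genes with 50 or more UMIs the shares were 14.9% and 7.91%. The median log2 ratio of the members was 2.53 in PT, 2.22 in TAL, 4.07 in DCT-CNT, 1.10 in CD-PC, 0.72 in EC and -0.06 in resident-type macrophages, against 0.11, 0.10, 0.09, -0.01, -0.02 and 0.17 over all genes. The members were not independent of each other, as several share cells and a genomic cluster. Leaving mitochondrial UMIs out of the totals moved the log2 ratio of every gene of a type alike, by at most -0.12 in these types, and turned no direction given here for the 10 genes. Over all kept cells it took Cxcl9 under 2-fold.

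**Figure D5:**
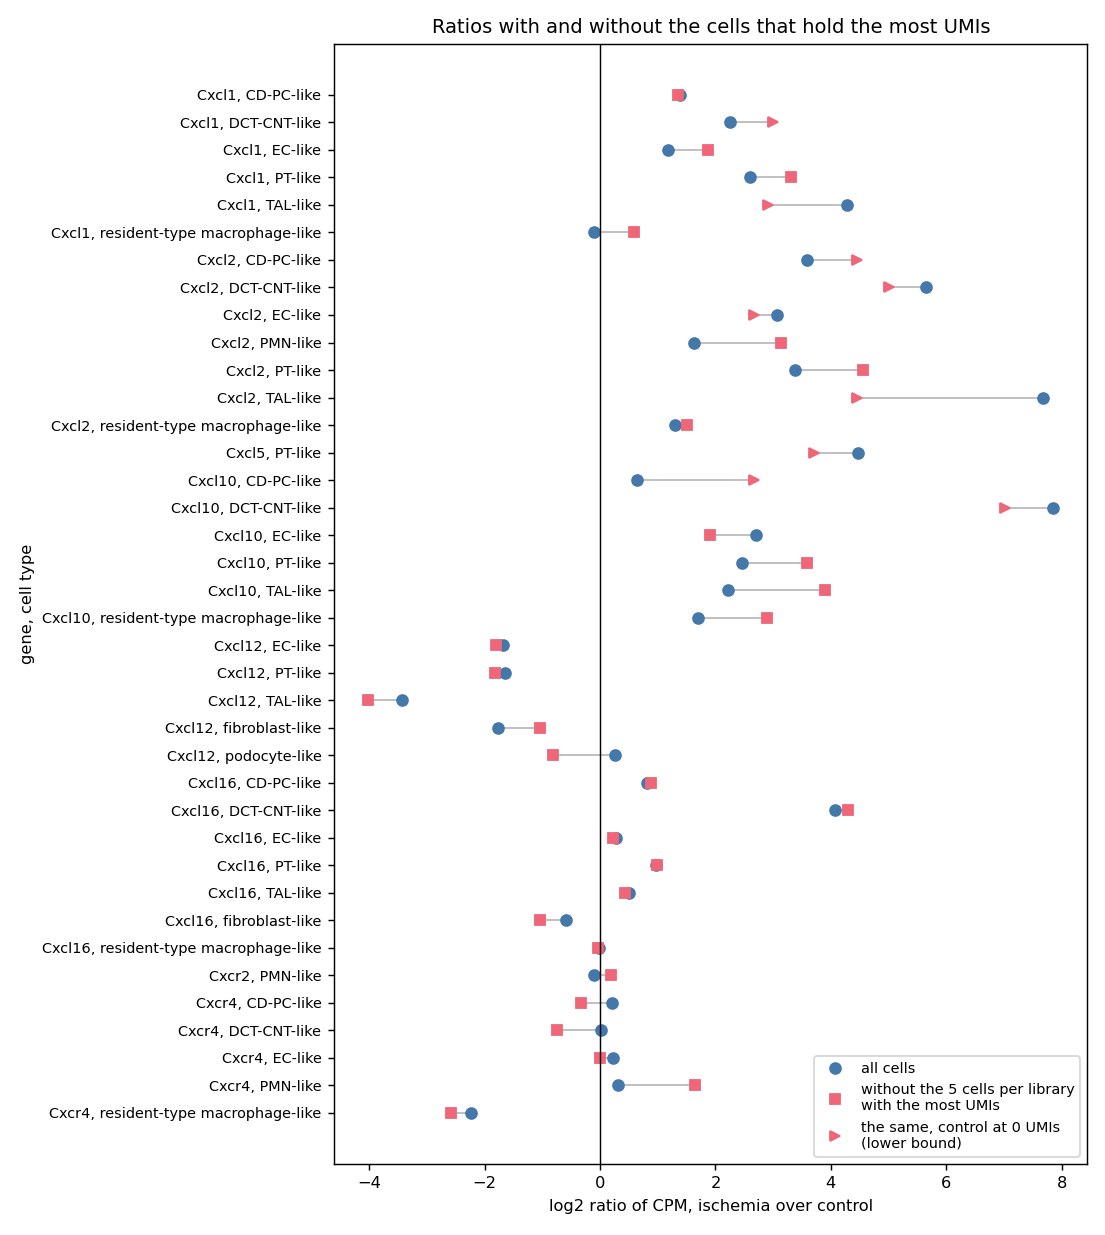
Log2 ratio of CPM, ischemia over control, for the pairs of a gene and a named type listed, over all cells (circles) and without the 5 cells per library with the most UMIs of the gene (squares, or triangles for lower bounds where the control then has 0 UMIs). Of the 7 types plotted for Cxcl16, 6 have squares close to the circles and fibroblasts do not, the square of Cxcl10 in TAL lies to the right, and that of Cxcl12 in podocytes lies on the other side of 0. The squares of PMN lie to the right after 5 of 17 control but 5 of 172 ischemia cells were left out, an unequal share.

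The likeness of patterns was described over 30 groups, each a cell type in a library with 30 or more cells, as the Pearson correlation of log2(CPM + 1). The groups share libraries and differ in depth. Among 15710 genes, the pattern most like that of Cxcl2 was that of C5ar1, the complement C5a receptor (r = 0.904), followed by Pilra (0.875) and Clec4n (0.873). For Cxcl3 these were Gm16556 (0.921), Olr1 (0.917) and Lilra6 (0.914), and for Cxcr2 Stfa2l1 (0.986), Il1f9 (0.957) and Asprv1 (0.954). The genes nearest to Cxcl10 were Il1rn, which encodes the IL-1 receptor antagonist (0.793), Cd14 (0.773) and Gm15832 (0.718), and those nearest to Cxcl1 were Tmx1 (0.713), Coro1c (0.675) and E030030I06Rik (0.670). Cxcl12 was most like Sulf1 (0.896), Npas3 (0.866) and Colec12 (0.855), and Cxcr4 most like Insyn2b (0.929), Ptprc, the gene of the leukocyte antigen CD45 (0.905), and Stap1 (0.897). Cxcl16 was most like Zmynd15 (0.847), Neurl1a (0.812) and Erp29 (0.786). For Cxcl5 (Zc3hav1l 0.822, Ptprn 0.740 and Flnc 0.739) and Cxcl9 (Tifab 0.95, Kcnk13 0.926 and Slamf8 0.907) the patterns rest on few cells. Among the members themselves the most alike were Cxcl2 and Cxcl3 (0.746), while Cxcl12 and its receptor Cxcr4 were the least alike (-0.513).

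The other CXC ligands, receptors and atypical receptors were taken from a list of 15 genes, of which 14 were in the gene list of the files and 11 had 20 or more UMIs. Pf4, a chemokine of platelets and macrophages, had 284 and 1299 CPM in resident-type macrophages (ratio 4.58, 4.07–5.16) and 0 and 908 CPM in monocytes, at least 34.4-fold higher. Ppbp, another platelet chemokine, had 6 control and 174 ischemia UMIs over all cells. Cxcl14 had 259.9 and 2046 CPM in fibroblasts (ratio 7.87, 5.97–10.6), with 644 of 799 ischemia UMIs in 5 cells, in the same type in which Cxcl12 was lower. Cxcl17, a mucosal chemokine, was higher in the distal nephron, with 3 and 120 UMIs in CD-IC (ratio 49.2, 16.4–242), 21 of 45 ischemia cells holding one, and ratios of 8.72 in TAL, 13.9 in DCT-CNT and 5.19 in CD-PC. Cxcl13, the B cell attractant, stood at 272 and 341 CPM in cluster 15, the cluster with the highest Cxcl1, and at 0 and 93.7 CPM in resident-type macrophages, where 151 of 162 UMIs lay in 1 cell.

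The receptors of Cxcl9, Cxcl10 and Cxcl16 had ratios in T cells whose intervals hold 1. Cxcr3 had 80.0 and 65.5 CPM (ratio 0.819, 0.440–1.55) and Cxcr6 319.9 and 318 CPM (ratio 0.993, 0.744–1.33). Cxcr5, the receptor of Cxcl13, had 103 and 136 CPM in B cells (ratio 1.33, 0.659–2.72). The atypical receptor Ackr3, which scavenges Cxcl12, had 18.8 and 14.7 CPM in PT (ratio 0.783, 0.721–0.850), 114 and 46.9 CPM in the thin limb (ratio 0.412, 0.324–0.521), and 81.8 and 17.9 CPM in fibroblasts (ratio 0.219, 0.0768–0.556), where the 7 ischemia UMIs came from 1 cell. Ackr4 had 2.46 and 1.82 CPM in PT (ratio 0.738) and Ackr2 7.03 and 4.38 CPM in EC (ratio 0.623, 0.367–1.05). Cxcl15, Cxcr1 and Ackr1 had fewer than 20 UMIs, and Cxcl11 was not analysed here.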

How the data were processed

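Cells of 1 control and 1 ischemia mouse kidney were profiled by droplet scRNAseq. The authors deposited 1 matrix of UMI counts per library, made per the submitters' processing notes with Cell Ranger 7.0.0 against mm10, with no normalization of the counts. No column of per-sample values was left unused (0). The 10 genes, the lists and the marker sets were chosen with earlier results of these data known. A barcode entered with 200 or more genes, between 500 and 150000 UMIs, and no more than 55% of UMIs from mitochondrial genes. In Seurat 5.3.0 (R 4.3.3) counts were log-normalized (scale 10000), integrated by anchors and clustered with 2000 variable genes, 30 principal components, resolution 0.3 and seed 42. The 24 CXC genes were left out of the variable genes. Immune, EC, stromal and PT cells were clustered again at resolution 0.5, with the libraries merged but not integrated. A cluster was named from marker lists when at least 3 markers with 10 or more UMIs were found and its score was 0.5 or more. Its 10 leading genes also had to hold more markers of its own than of any other list. Where they held no marker of either, the best rival score had to be below 1. A cluster of shallow cells with no own marker among these genes stayed unnamed. The details of this naming rule were set after the clusters were seen. Scrublet (scanpy 1.11.5) called 0 doublets in 25702 cells, so that it did not work here and no doublets were removed.

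UMIs were summed per type and library and given as CPM with exact Poisson intervals (95%) and ratios with exact conditional binomial intervals. Shares of cells carry counting error only and were also given after thinning to 1000 UMIs per cell. Where the control count was 0, the ratio was computed against 3 counts and is called a lower bound. It leaves out the counting error of the ischemia count. The exact 95% lower limits were smaller, for instance 38.0 against 46.7 for Cxcl2 in monocytes. Genes with 20 or more UMIs over both libraries in a type were compared. A gene's leading type was the named type with the highest ischemia CPM among those with 30 or more cells. Named were the 10 genes, other CXC family genes with 20 or more UMIs, the genes used for marker and injury checks, and the 3 genes most like each member among genes with 100 or more UMIs. Depth was 124679362 and 128733541 UMIs. Alternatives were other filters, clustering and scaling, and cells left out. A planned comparison of protein sequences was not run, as no protein table was used here. The calculations were tested on simulated data. Sums and intervals came from scipy 1.17.1 with pandas 2.3.3 in Python 3.11.15.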

Additional observations from a re-analysis of the deposited data

Results flagged for a closer look

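Cxcl9 and Cxcl10 each stood in opposite directions in different cell types, and neither difference between types was tested, since each condition had 1 library. The Cxcl9 ratio was 0.192 in resident-type macrophages, where 87 of 98 control UMIs came from 1 cell and the ratio without the top cell of each library was 0.940 (0.410–2.24), and at least 10.6 in CD-PC, where all 37 ischemia UMIs came from 1 cell. The Cxcl10 ratio was 0.171 in monocytes, where all 107 control UMIs came from 1 of 19 cells. Without the top cell of each library the monocyte bound was 2.05, but every control UMI was then left out by construction. In DCT-CNT the Cxcl10 ratio was 231, and 62 of 353 ischemia cells held a UMI. The low value of either gene thus rests on 1 control cell.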

How the results depend on the processing

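No paired analysis was possible because each condition had 1 library. Of the ratios in leading types under each alternative, 87 lay within the counting interval of the reported ratio, 14 lay outside it and 1 turned. The 87 include the setting without Scrublet doublets, which removed no cell and so returned the reported ratio of each gene by construction. For Cxcl3 in PMN and Cxcl9 in monocytes the control count was 0 and the interval had no upper end, so any larger ratio lay within it. Of the 87, 5 crossed 1, all for Cxcr2 in PMN or Cxcl16 in macrophages. The Cxcl10 monocyte ratio of 0.171 was 0.277 as a mean of each cell's own CPM. Without integration at the first level of clustering it became a lower bound of 1.93, but for another set of cells. Only 10 control and 28 ischemia cells led by Cd300e and Ace were then named monocytes. The cluster led by Vcan, Chil3 and Saa3 (8 and 243 cells) was left unnamed. Without integration the Cxcl1 thin limb ratio of 4.29 was 2.21. With the 5 top cells per library left out, ratios were 7.72 (Cxcl1 thin limb), 8.76 (Cxcl2 PMN, from 3.09), 0.484 (Cxcl12 fibroblast, from 0.293) and 3.12 (Cxcr4 PMN, from 1.24). With cells gated on 3 or more marker UMIs they were 1.57 (Cxcl1 thin limb), 3.85 (Cxcl2 PMN), 0.414 (Cxcl12 fibroblast) and 0.755 (Cxcl16 macrophage, from 0.991). As a mean of each cell's own CPM they were 7.2 (Cxcl1 thin limb), 5.20 (Cxcl5 PT, from 22.1), 0.225 (Cxcl12 fibroblast) and 1.11 (Cxcl16 macrophage). The PMN values without 5 cells leave out 5 of 17 control but 5 of 172 ischemia cells, which raises them by construction. In other types too, leaving out 5 cells per library can take a larger share of UMIs from the library in which fewer cells hold the gene. The other causes were not tested. Cxcl3, Cxcl9 and Cxcl10 gave no value under some of these settings, for lack of UMIs.

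The percent of genes past 2-fold depended on the minimum count. With 1 UMI, 10.1% were lower over all cells, and higher and lower were 14.9% and 10.0% in PT, 15.5% and 15.2% in TAL, 16.1% and 12.7% in DCT-CNT, 13% and 13.6% in CD-PC and 9.74% and 13.3% in EC, and 19.3% were lower in macrophages. For these calls a library without a UMI of a gene was given 3 UMIs of it. A gene with 1 UMI, found only in the ischemia library, could thus be called lower. The reverse could hold for a gene found only in the control library. The percents with 1 UMI include such reversed calls, which were not counted, so no direction is read from them. With 50 UMIs, 1.91% were higher in EC and 3.79% lower in macrophages. The removal of the top 8% of Scrublet scores, of cells with myeloid UMIs, of the top 5 cells in every type, and of EC and PT sub-clusters led by other classes were chosen after seeing the data. With 1 library per condition, the spread between mice is unknown.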
